A study of Mus musculus with 8 samples.

Results

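Mouse genes for proteins that control the stability or translation of inflammatory mRNAs were described across 8 RNA sequencing libraries of peritoneal macrophages. The 10 were listed by symbol: Zfp36, Zfp36l1, Zfp36l2, Zc3h12a, Rc3h1, Rc3h2, Elavl1, Hnrnpd, Ksrp and Tia1. Of the 10 names, 9 matched 1 locus each among the 23735 loci of the table, and Ksrp matched none. RefSeq gives Ksrp as a synonym of Khsrp, so the row named Khsrp is described beside the 9 members and is not counted among them. All 9 members were above the expression filter of at least 1 RPKM in at least 2 libraries, which 11272 loci passed, and their lowest value in any library was 5.19 RPKM. RPKM counts the reads on a gene relative to the length of its transcript and to the depth of the library.

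The macrophages came from 8-week-old C57BL/6J mice of the genotypes MED1ΔMac, labelled MED1-/- and carrying a macrophage deletion of MED1, and MED1fl/fl, labelled WT and carrying the floxed allele without that deletion. The 4 groups were MED1-/- cells with lipopolysaccharide (LPS, a bacterial cell wall component sensed by TLR4) at 50 ng/mL for 6 h, untreated MED1-/- cells, WT cells with the same LPS treatment, and untreated WT cells. Each group had 2 libraries, A and B. The sources used here give neither the Cre driver, the deleted exons nor the meaning of the letters, nor do they say whether each library came from a separate mouse, so the p-values measure only the spread between these libraries.

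Inflammatory mRNAs such as those of Tnf and Il6 are made in bursts and destroyed quickly, and much of that destruction is directed by short elements in the 3′ untranslated region (3′ UTR). Zfp36 (tristetraprolin) and its relatives Zfp36l1 and Zfp36l2 are zinc finger proteins that bind AU-rich elements built around UAUUUAU and bring in the CCR4-NOT complex, which removes the poly(A) tail. Zc3h12a (Regnase-1) is an endonuclease that cuts stem-loops, and Rc3h1 and Rc3h2 (Roquin-1 and Roquin-2) bind stem-loops and also recruit CCR4-NOT. Hnrnpd (AUF1) and Khsrp (KSRP) bind AU-rich elements and promote decay. Elavl1 (HuR) binds the same kind of element and is better known for stabilising mRNAs, and Tia1 is a translational repressor that binds the Tnf element, so not every gene of the set is a destabiliser.

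The 3′ UTRs of most members themselves carry the AU-rich motif that the Zfp36 family reads. In the longest 3′ UTR annotated for each gene in GENCODE vM1, searched on the transcript strand, 6 of 9 members (66.7%) held the 9-base motif TTATTTATT, against 746 of 9920 genes above the filter (7.52%). The 7-base core TATTTAT, which lies inside the longer motif, was found in 7 of 9 members (77.8%), against 28.2% of those genes. Long 3′ UTRs hold more matches, and the members' were long, with a median of 2938 bases against 1171. Among the 4044 genes with at least 1500 bases of 3′ UTR, 12.7% held the 9-base motif and 45.7% the core. A match describes letters and does not show that a protein binds there. The first match of each of the 6 members is shown as 29 bases of the transcript strand, with the 9-base motif in capitals, followed by those of 3 mRNAs that the family is known to act on or that are listed as targets here (Tnf, Cxcl3 and Ptgs2). In mm9 they lie at chr7:29161970-29161998 (minus strand, Zfp36), chr12:81209154-81209182 (minus, Zfp36l1), chr17:84584254-84584282 (minus, Zfp36l2), chr1:162900174-162900202 (plus, Rc3h1), chr2:37228807-37228835 (minus, Rc3h2), chr8:4285788-4285816 (minus, Elavl1), chr17:35336634-35336662 (minus, Tnf), chr5:91216893-91216921 (plus, Cxcl3) and chr1:151952920-151952948 (plus, Ptgs2).
Zfp36: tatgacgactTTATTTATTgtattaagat
Zfp36l1: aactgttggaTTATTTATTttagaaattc
Zfp36l2: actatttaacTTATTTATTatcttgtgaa
Rc3h1: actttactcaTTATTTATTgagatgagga
Rc3h2: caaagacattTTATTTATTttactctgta
Elavl1: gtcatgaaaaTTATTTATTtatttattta
Tnf: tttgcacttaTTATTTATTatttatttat
Cxcl3: ttatcagttgTTATTTATTgaaatggtct
Ptgs2: ctgaccatatTTATTTATTtatgtgaaga

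The members differed in how many matches they held. Zfp36 held 1 copy of the 9-base motif and 3 of the core in a 3′ UTR of 774 bases, and Zfp36l1 and Zfp36l2 held the same numbers in 1829 and 1822 bases. Elavl1 held 8 copies of the 9-base motif, the most of any member, and Tnf held 5. Overlapping matches were each counted, as in the stretches printed for Elavl1 and Tnf, so these copies are not all separate sites. Rc3h1 and Rc3h2 held 1 copy each in 7181 and 5331 bases. Tia1 held 1 copy of the core and none of the 9-base motif in 3036 bases. Neither motif was found in the 3′ UTRs of Zc3h12a (856 bases), Hnrnpd (2938 bases) or Khsrp (1635 bases), which says only that these letters are not in these sequences.

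Depth was estimated at 6.9 to 14.3 M mapped reads per library, and the members rested on an estimated 160 to 4921 reads per library. The shallowest libraries were WT LPS B (6.9 M) and untreated MED1-/- B (7.5 M). The table gives no read counts, so these depths come from the spacing of low values. Between 10192 and 11027 loci reached 1 RPKM. All 8 macrophage markers examined were detected, including Emr1 (F4/80), Csf1r and Itgam, so the labelled cell type was present. The summed RPKM of these markers was 8349 and 8316 in MED1-/- LPS A and B, 11642 and 18136 in untreated MED1-/-, 21237 and 18622 in WT LPS, and 32007 and 35655 in untreated WT. Lyz2 made up most of that sum in each library, and the other 7 markers summed to 3238 and 3769 RPKM in MED1-/- LPS, 3140 and 3135 in untreated MED1-/-, 3908 and 5391 in WT LPS, and 3419 and 3337.5 in untreated WT. Markers of B cells were also present: all 6 were detected, none was at 0, and their summed RPKM was 1379 and 966 in MED1-/- LPS A and B, 564 and 1677 in untreated MED1-/-, 595 and 399 in WT LPS, and 618 and 548 in untreated WT. The sums of 6 T and NK cell markers ranged between 16.8 and 79.2 RPKM and those of 5 mast cell markers between 0.103 and 131 RPKM, and both were highest in untreated MED1-/- B. The 5 neutrophil markers in the table, mainly S100a8, summed to 79.3 and 133 RPKM in MED1-/- LPS A and B, against 43.3 and 48.8 untreated, and 122 and 134 in WT LPS, against 39.8 and 67.6 untreated. This sum was higher with LPS in both genotypes, as was Camp, while Elane and Mpo were listed at 0 in 7 of the 8 libraries. S100a9 did not follow it, with 5.63 RPKM in untreated MED1-/- B, 3.24 in untreated WT B, 2.03 in WT LPS A and 0 in the rest. The part of other cells in the members' values was not tested, and in bulk RNA a change in the share of a cell type and a change of RNA per cell cannot be told apart.

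Med1, the targeted gene, does not separate the genotypes in this table. It had 24.4 and 20.3 RPKM in MED1-/- LPS A and B, 17.6 and 23.4 in untreated MED1-/-, 24.7 and 21.6 in WT LPS, and 21.7 and 24.8 in untreated WT. The log2 difference of MED1-/- from WT was -0.05 with LPS and -0.18 untreated (adjusted p = 1 for each). A whole-gene value can miss a deletion of some exons, and the deleted exons are not given, so the genotypes below rest on the labels alone.

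In untreated WT cells the members spanned 1 order of magnitude, led by the Zfp36 family. Zfp36l2 averaged 112 RPKM, Zfp36 64.3, Zfp36l1 25.2, Hnrnpd 19.8, Zc3h12a 17.4, Rc3h1 11.3, Elavl1 10.5, Rc3h2 9.56 and Tia1 7.44 RPKM. Each neighbour in that order stood apart from the next in both libraries, except that Rc3h1 overlapped Elavl1 and Elavl1 overlapped Rc3h2. Untreated MED1-/- cells had the same first 3 genes, at 112, 70.8 and 45.3 RPKM, with Zfp36 and Zfp36l1 overlapping. With LPS the order at the top was another one. In MED1-/- LPS cells Zfp36 averaged 110.2 RPKM and Zc3h12a 86.7, which overlapped, and Zfp36l2 followed at 51.2. In WT LPS cells Zc3h12a averaged 89.3, Zfp36 86.6 and Zfp36l2 66.98 RPKM, each overlapping the next. Tia1 had the lowest mean in all 4 groups.

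**Figure D1:**
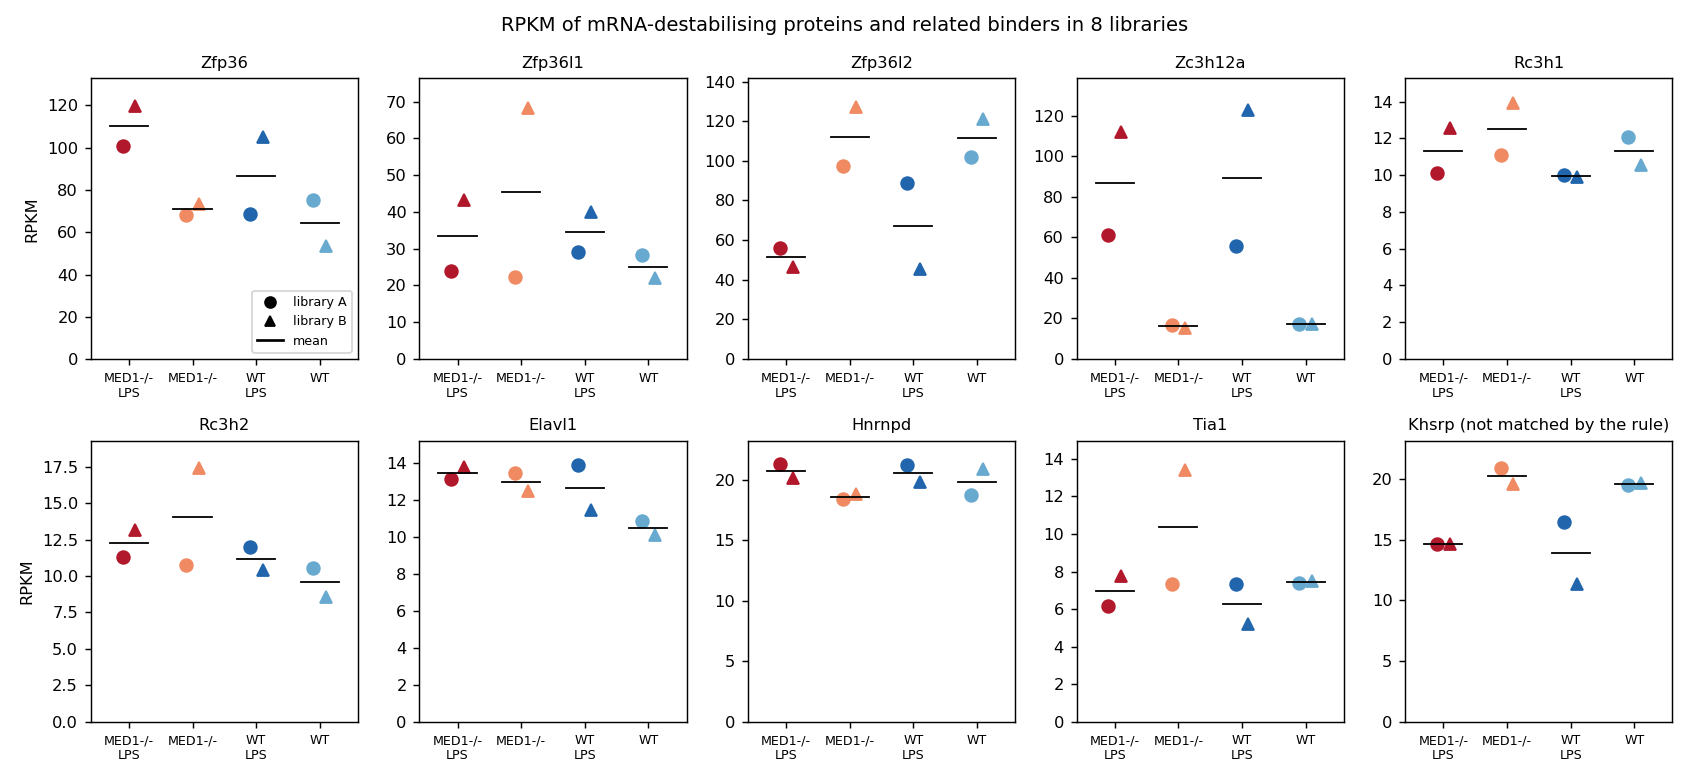
RPKM of the 9 members and Khsrp in each library, 1 panel per gene with its own linear axis starting at 0; circles are library A, triangles library B and bars the mean of the 2. Zc3h12a sits at 55.9 RPKM or more in the 4 LPS libraries of both genotypes and at 17.4 RPKM or less in the 4 untreated ones.

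The response to LPS was examined first in each genotype. Zc3h12a was the only member that passed the test, and it passed in both genotypes. In MED1-/- cells 1 of 9 members was called, against 6.62% of all loci (3.31% called higher), and in WT cells 1 of 9, against 6.31% (3.17% called higher). Calls were made with limma over all loci above the filter, at a p under 0.05 after Benjamini-Hochberg adjustment, on the log2(RPKM + 1) scale, which understates changes of low genes. The median change of all loci with LPS was -0.28 in MED1-/- cells and -0.25 in WT cells, and the median of the 9 members was -0.13 in MED1-/- cells and 0.21 in WT cells. Scaling the libraries by median ratios brought the medians of all loci to -0.04 in MED1-/- cells and -0.02 in WT cells, so a value near -0.28 in MED1-/- cells or -0.25 in WT cells on the deposited scale is in the middle of all loci. With that scaling 465 loci were called higher and 341 lower in MED1-/- cells (373 and 373 as deposited), and 499 higher and 383 lower in WT cells (357 and 354 as deposited). The calls over all loci depended on single libraries: in MED1-/- cells they numbered 20 without MED1-/- LPS B and 1554 without WT LPS B, and in WT cells 7 without untreated WT A and 2244 without WT LPS A.

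Zc3h12a (chromosome 4, 124795667 to 124805084, minus strand, mm9) had 61.3 and 112 RPKM in MED1-/- LPS A and B, against 16.8 and 15.4 in untreated MED1-/- cells. In WT cells it had 55.9 and 123 RPKM with LPS, against 17.4 and 17.4 untreated. The LPS and untreated libraries did not overlap in either genotype, and with LPS letter B was above letter A in both. Its mean was 86.7 ± 35.9 RPKM with LPS against 16.1 ± 0.943 untreated in MED1-/- cells, a 5.38-fold difference, and 89.3 ± 47.2 against 17.4 ± 0.0132 in WT cells, a 5.13-fold difference (SD, n = 2 each). Zc3h12a rose by 2.30 on the log2 scale in MED1-/- cells (SE 0.40, adjusted p = 0.0250) and by 2.19 in WT cells (SE 0.40, adjusted p = 0.0275). Within letter A the fold was 3.66 in MED1-/- cells and 3.21 in WT cells, and within letter B 7.26 in MED1-/- cells and 7.04 in WT cells, so the letters differed more than the genotypes. The neutrophil marker sum given above, mainly S100a8, was also higher with LPS in both genotypes, and its part in these values was not tested. The call in MED1-/- cells was lost without MED1-/- LPS A (adjusted p = 0.059), MED1-/- LPS B (0.174), untreated MED1-/- A (0.0653) or untreated MED1-/- B (0.103). In WT cells it was lost without WT LPS B (0.128), untreated WT A (0.147) or untreated WT B (0.115). Both calls were also lost with all loci tested and no filter (adjusted p = 0.059 in MED1-/- cells and 0.0593 in WT cells). With a block for the letter (the replicate block) both were kept (adjusted p = 0.00808 in MED1-/- cells and 0.00798 in WT cells in limma). Over the 8 fits with a library left out the change ran between 1.87 and 2.73 in MED1-/- cells and between 1.63 and 2.75 in WT cells.

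The 3 genes of the Zfp36 family did not share a pattern. Zfp36 (chromosome 7, 29161803 to 29164274, minus strand) had 101 and 119.6 RPKM in MED1-/- LPS A and B, against 68.1 and 73.4 untreated, and 68.4 and 105 in WT LPS, against 75.2 and 53.4 untreated. The LPS libraries were higher than the untreated ones without overlap in MED1-/- cells, while in WT cells they overlapped and letter A was lower with LPS. The log2 difference was 0.63 in MED1-/- cells (SE 0.27, adjusted p = 0.176) and 0.41 in WT cells (SE 0.27, adjusted p = 0.341), and neither passed.

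Zfp36l2 (chromosome 17, 84583271 to 84587287, minus strand) had the opposite sign. It had 56.2 and 46.3 RPKM in MED1-/- LPS A and B, against 97.5 and 127 untreated, and 88.7 and 45.3 in WT LPS, against 102 and 121 untreated. Every LPS library was below every untreated library of its genotype, with WT LPS A the closest. The log2 difference was -1.11 in MED1-/- cells (SE 0.33, adjusted p = 0.0836) and -0.80 in WT cells (SE 0.33, adjusted p = 0.159). Neither passed with all 8 libraries. With a library left out, the value in WT cells ran between -1.28, without WT LPS A, and -0.32. Whether that value passed depended on the library left out. WT LPS B was the lowest of the 8 libraries for 3 of 9 members, Zfp36l2 among them, and for 45.7% of all loci. The value of -1.11 in MED1-/- cells passed without WT LPS A (adjusted p = 0.031) or without WT LPS B (0.0309), fits in which the MED1-/- libraries were all kept.

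Zfp36l1 (chromosome 12, 81208747 to 81214000, minus strand) varied widely between the libraries of a group in MED1-/- cells. It had 23.9 and 43.3 RPKM in MED1-/- LPS A and B, against 22.4 and 68.3 untreated, and 29.1 and 39.9 in WT LPS, against 28.3 and 22.0 untreated. Untreated MED1-/- B was the highest of all 8 libraries. The log2 difference with LPS was -0.28 in MED1-/- cells (SE 0.51, adjusted p = 0.736) and 0.43 in WT cells (SE 0.51, adjusted p = 0.597). Without untreated MED1-/- B the value in MED1-/- cells was 0.51. The marker sums of B cells (1677 RPKM), T and NK cells (79.2) and mast cells (131) were highest in that library, and the next highest B cell sum was that of MED1-/- LPS A (1379 RPKM). Their part in the values of Zfp36l1 was not tested. The lincRNA Gm17591 overlaps Zfp36l1 on the opposite strand, and since the strandedness of the libraries is not given, reads of the 2 cannot be told apart.

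Within a library, Zfp36 exceeded Zfp36l2 in 3 of the 4 LPS libraries and in none of the 4 untreated ones. The ratio of Zfp36 to Zfp36l2 was 1.79 and 2.58 in MED1-/- LPS A and B, against 0.699 and 0.578 untreated, and 0.772 and 2.31 in WT LPS, against 0.738 and 0.440 untreated. WT LPS A stood with the untreated libraries. The summed RPKM of the 3 genes stayed in a narrower range, at 181 and 209 in MED1-/- LPS A and B, 188 and 269 in untreated MED1-/-, 186 and 190.1 in WT LPS, and 205 and 197 in untreated WT. Zfp36 made up 55.7% and 57.2% of that sum in MED1-/- LPS, 36.3% and 27.3% in untreated MED1-/-, 36.8% and 55.2% in WT LPS, and 36.6% and 27.1% in untreated WT. The ratio of Zc3h12a to Zfp36 was 0.609 and 0.937 in MED1-/- LPS, against 0.246 and 0.210 untreated, and 0.817 and 1.17 in WT LPS, against 0.232 and 0.327 untreated. All 4 LPS libraries were above all 4 untreated ones in this ratio. These ratios were chosen after the values were seen and were not tested.

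**Figure D2:**
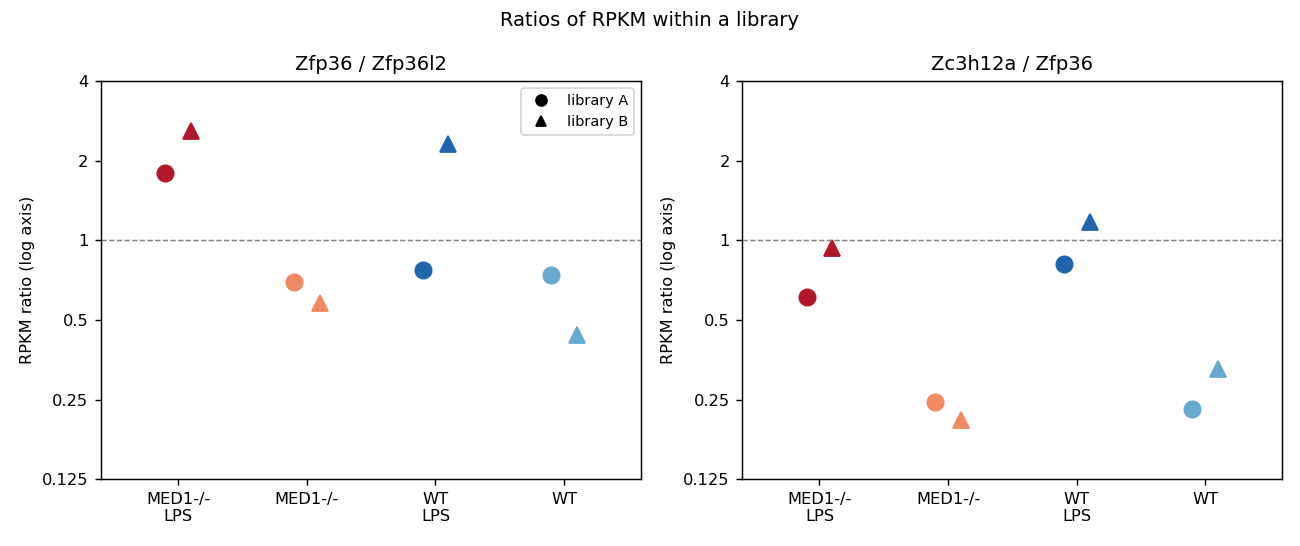
Ratio of RPKM within each library for Zfp36 over Zfp36l2 (left) and Zc3h12a over Zfp36 (right), on a log axis; circles are library A and triangles library B, and the dashed line marks equal values. The left ratio is above 1 in both MED1-/- LPS libraries and in WT LPS B, and at 0.772 in WT LPS A.

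Rc3h1 and Rc3h2, the Roquin genes, stayed between 8.56 and 17.4 RPKM in all libraries. Rc3h1 (chromosome 1, 162836549 to 162905109, plus strand) had 10.1 and 12.6 RPKM in MED1-/- LPS A and B, against 11.1 and 13.9 untreated, and 10.004 and 9.91 in WT LPS, against 12.1 and 10.6 untreated. Its log2 difference with LPS was -0.13 in MED1-/- cells and -0.17 in WT cells, each nearer to 0 than the median of all loci, and with median-ratio scaling it was 0.13 in MED1-/- cells and 0.08 in WT cells. Rc3h2 (chromosome 2, 37225589 to 37278423, minus strand) had 11.3 and 13.2 RPKM in MED1-/- LPS, against 10.7 and 17.4 untreated, and 11.96 and 10.4 in WT LPS, against 10.6 and 8.56 untreated. Untreated MED1-/- B was again the highest library of both genes. The log2 difference of Rc3h2 with LPS was -0.15 in MED1-/- cells, 0.17 without untreated MED1-/- B and 0.11 with median-ratio scaling, and 0.21 in WT cells (adjusted p = 0.716 in MED1-/- and 0.612 in WT cells with all 8 libraries). Rc3h2 holds the small nucleolar RNA Snord90 on the same strand.

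The other binders of AU-rich elements did not pass the test either. Elavl1 (chromosome 8, 4284782 to 4325100, minus strand) had 13.1 and 13.8 RPKM in MED1-/- LPS A and B, against 13.4 and 12.5 untreated, and 13.9 and 11.4 in WT LPS, against 10.9 and 10.1 untreated. The untreated WT libraries were its 2 lowest. Hnrnpd (chromosome 5, 100387445 to 100407957, minus strand) had 21.3 and 20.1 RPKM in MED1-/- LPS, against 18.4 and 18.8 untreated, and 21.2 and 19.8 in WT LPS, against 18.7 and 20.8 untreated. All of its values lay between 18.4 and 21.3 RPKM, the narrowest range in proportion among the members, and Gm17092 overlaps it on the opposite strand. Tia1 (chromosome 6, 86354213 to 86383397, plus strand) had 6.18 and 7.76 RPKM in MED1-/- LPS, against 7.36 and 13.4 untreated, and 7.33 and 5.19 in WT LPS, against 7.41 and 7.47 untreated. Untreated MED1-/- B was the one library above 7.76 RPKM. The log2 differences of these 3 genes with LPS ran between -0.47 (Tia1) and 0.15 (Hnrnpd) in MED1-/- cells and between -0.23 (Tia1) and 0.25 (Elavl1) in WT cells, and none passed (adjusted p of at least 0.323).

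Khsrp, which is beside the set, had 14.6 and 14.6 RPKM in MED1-/- LPS A and B, against 20.9 and 19.6 untreated, and 16.4 and 11.4 in WT LPS, against 19.5 and 19.7 untreated. The LPS libraries were lower than the untreated ones in both genotypes. The log2 difference was -0.44 in MED1-/- cells (SE 0.21, adjusted p = 0.210) and -0.49 in WT cells (SE 0.21, adjusted p = 0.176). Neither passed with all 8 libraries. With a library left out, the value in WT cells ran between -0.74, without WT LPS A, and -0.24. Whether that value passed depended on the library left out. The medians of all loci were -0.28 in MED1-/- cells and -0.25 in WT cells. With median-ratio scaling Khsrp differed by -0.17 in MED1-/- cells and -0.24 in WT cells.

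The LPS and untreated libraries did not overlap for 4 of 9 members in MED1-/- cells (Zfp36, Zfp36l2, Zc3h12a and Hnrnpd), against 63.1% of all loci. In WT cells they did not overlap for 6 of 9 (Zfp36l1, Zfp36l2, Zc3h12a, Rc3h1, Elavl1 and Tia1), against 64.1%. The first share is below and the second close to that of all loci, and Zfp36l2 and Zc3h12a were the members found in both genotypes.

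**Figure D3:**
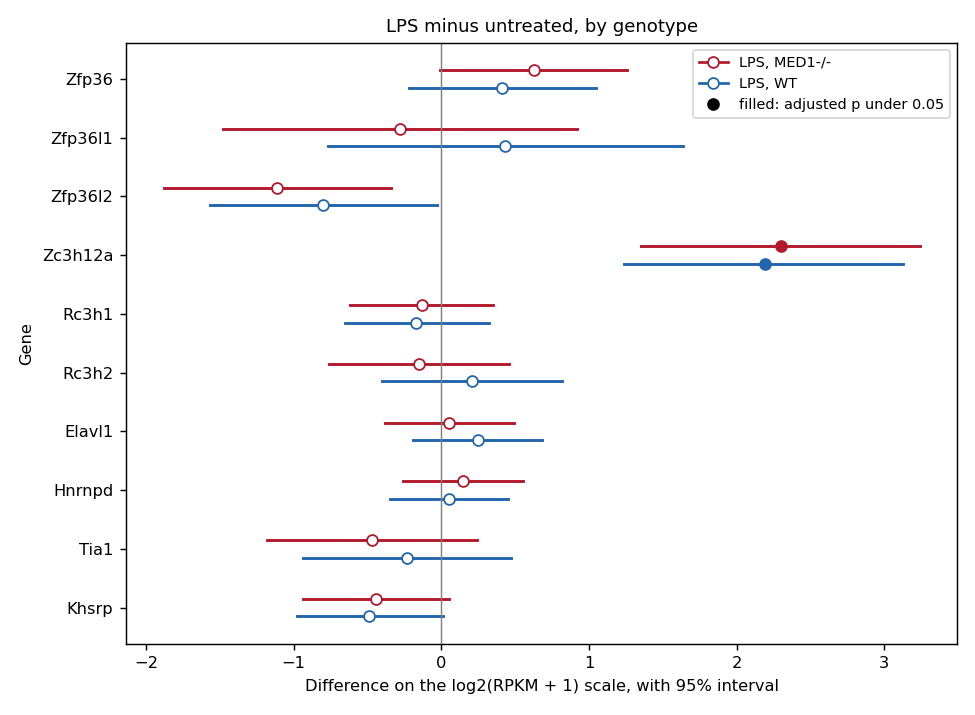
Difference of LPS minus untreated libraries on the log2(RPKM + 1) scale for the 9 members and Khsrp, with its 95% interval from limma, for MED1-/- cells (upper line of each pair) and WT cells (lower line). Zc3h12a alone is filled, at 2.30 in MED1-/- cells and 2.19 in WT cells; the intervals of Zfp36l2 lie below 0 but its adjusted p did not pass.

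The genotypes were compared next, with LPS and without it, as the libraries are labelled. No member passed in either comparison: with LPS 0 of 9 members were called, against 0.00887% of all loci (1 locus), and untreated 0 of 9, against 0.0266% (3 loci). In limma none of the 9 had an unadjusted p under 0.05, against 4.42% of all loci with LPS and 0.834% untreated, and the smallest was 0.103, for Rc3h2 untreated. With LPS the MED1-/- and WT libraries did not overlap for 1 of 9 members (Rc3h1), against 30.4% of all loci. Untreated they did not overlap for 3 of 9 (Zc3h12a, Rc3h2 and Elavl1), against 23.6%. Among the macrophage markers Lyz2 stood apart between the same libraries, at 5111 and 4547 RPKM in MED1-/- LPS A and B against 17329 and 13231 in WT LPS, and at 8502.5 and 15001 in untreated MED1-/- against 28588 and 32317 in untreated WT, and its part in the members' values was not tested. With LPS, Csf1r (339 and 249 RPKM against 645 and 356 in WT), Itgam (498 and 400 against 615 and 703), Gata6 and Fcgr1 were also lower in MED1-/- cells without overlap. Untreated, these genes overlapped. Emr1 went the other way, with 454 and 454 RPKM in MED1-/- LPS against 449.7 and 424 in WT LPS, and Cd68 and Cd14 overlapped. The summed B cell markers were higher in MED1-/- LPS A and B, at 1379 and 966 RPKM against 595 and 399 in WT LPS. So were those of T and NK cells, at 41.5 and 45.1 RPKM against 17.9 and 21.7. Untreated, both sums overlapped between the genotypes. The part of these cells in the members' values was not tested.

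The intervals show what sizes these data leave possible. For Zc3h12a the log2 difference of MED1-/- from WT was 0.00 with LPS (95% interval -0.94 to 0.95) and -0.11 untreated (-1.05 to 0.84). For Zfp36 it was 0.37 with LPS (-0.27 to 1.01) and 0.16 untreated (-0.48 to 0.79). For Zfp36l2 it was -0.31 with LPS (-1.08 to 0.46) and 0.00 untreated (-0.77 to 0.77). With LPS the interval of Zfp36 reached above 1 and that of Zfp36l2 below -1, whereas untreated neither reached 1 log2 unit in either direction. The narrowest interval with LPS was that of Hnrnpd, 0.01 (-0.39 to 0.42), and the widest untreated that of Zfp36l1, 0.63 (-0.57 to 1.83).

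Several of the positive values in untreated cells rested largely on 1 library. Without untreated MED1-/- B the difference of Zfp36l1 was -0.15, that of Rc3h2 0.16 (0.48 with it) and that of Tia1 -0.01 (0.38 with it). That library was the highest of the 8 for 5 of 9 members (Zfp36l1, Zfp36l2, Rc3h1, Rc3h2 and Tia1), and for 35.2% of all loci. It also had the highest marker sums of B cells (1677 RPKM), T and NK cells (79.2) and mast cells (131). Elavl1 did not follow it: its difference in untreated cells was 0.28 (95% interval -0.15 to 0.72) and 0.33 without that library. The difference of Zfp36 in untreated cells, 0.16, changed sign without another library, untreated WT B (-0.09).

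**Figure D4:**
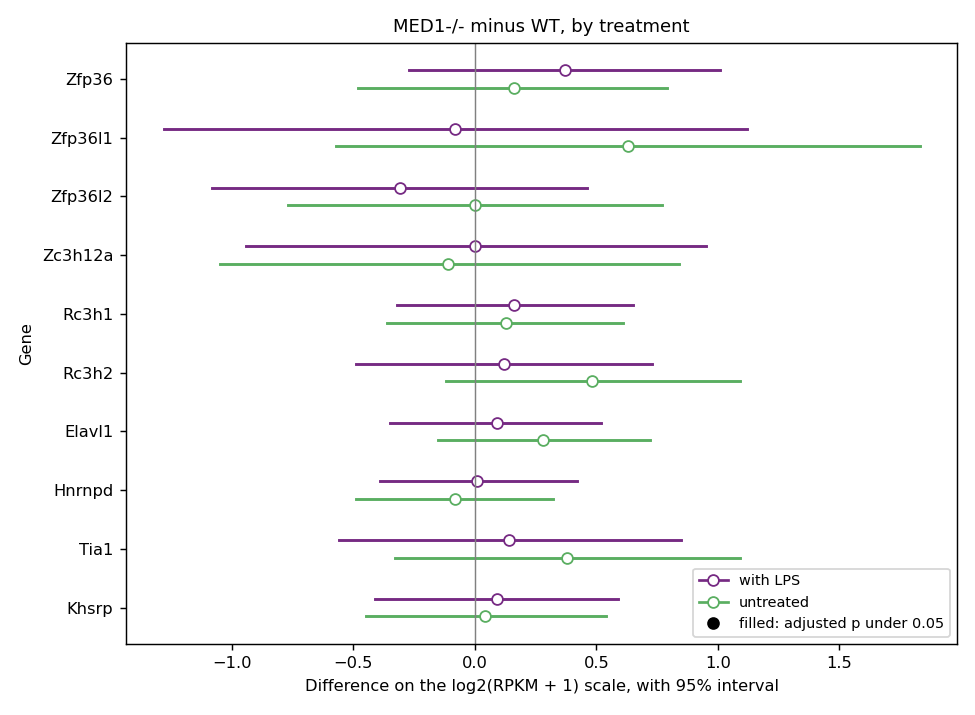
Difference of MED1-/- minus WT libraries on the log2(RPKM + 1) scale for the 9 members and Khsrp, with its 95% interval from limma, with LPS (upper line of each pair) and untreated (lower line). No point is filled, and every interval includes 0.

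Whether the LPS response differed between the genotypes was tested as an interaction, the response in MED1-/- cells minus that in WT cells. No member passed (0 of 9, against 0.0355% of all loci), none had an unadjusted p under 0.05 in limma, against 1.63% of all loci, and every adjusted p was 0.9999. The value was 0.11 for Zc3h12a (95% interval -1.23 to 1.45), 0.21 for Zfp36 (-0.69 to 1.11), -0.31 for Zfp36l2 (-1.40 to 0.78) and -0.71 for Zfp36l1 (-2.41 to 0.99). The last of these was 0.07 without untreated MED1-/- B.

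Close relatives of the members were read from a list of 24 further RNA binders, of which 18 were above the filter. In MED1-/- cells 1 of 18 was called higher with LPS and none lower, with a median change of 0.02, and in WT cells 2 of 18 higher and none lower, with a median of -0.06. Of all loci 3.31% were called higher in MED1-/- cells and 3.17% in WT cells. With the replicate block Arid5a, which stabilises Il6 mRNA, was also called in WT cells (1.10, adjusted p = 0.0296, against 0.0846 without the block). Zc3h12c (Regnase-3), of the same nuclease family as Zc3h12a, was called in both. It had 42.4 and 40.8 RPKM in MED1-/- LPS A and B, against 8.67 and 8.10 untreated, and 25.9 and 32.7 in WT LPS, against 8.85 and 11.8 untreated. All LPS libraries were above all untreated ones, and the MED1-/- LPS libraries were the 2 highest. Zc3h12c rose by 2.18 on the log2 scale in MED1-/- cells (SE 0.21, adjusted p = 0.00607) and by 1.42 in WT cells (SE 0.21, adjusted p = 0.0183). The difference between those responses was 0.76 (adjusted p = 0.9999), so it did not pass. Its call was lost in MED1-/- cells without MED1-/- LPS B (adjusted p = 0.083) and in WT cells without WT LPS B (0.0973), untreated WT A (0.130) or untreated WT B (0.0582).

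N4bp1, another endonuclease with a domain related to that of Regnase-1, was the second called in WT cells. It had 25.3 and 22.0 RPKM in MED1-/- LPS A and B, against 11.8 and 14.8 untreated, and 44.3 and 35.3 in WT LPS, against 12.4 and 19.4 untreated. The WT LPS libraries were the 2 highest. N4bp1 rose by 1.29 on the log2 scale in WT cells (SE 0.26, adjusted p = 0.0343), and its difference in MED1-/- cells was 0.79 (SE 0.26, adjusted p = 0.105), which passed with median-ratio scaling (0.0400). The WT call was lost without MED1-/- LPS A (adjusted p = 0.0629), MED1-/- LPS B (0.0625), WT LPS A (0.0517), WT LPS B (0.124), untreated WT A (0.207) or untreated WT B (0.0696), and with no filter (0.0627).

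No gene of the machinery that the members recruit passed the test. Of all loci 6.62% were called in MED1-/- cells and 6.31% in WT cells. At those shares few calls would fall in lists of 20 and 34 genes. Of 20 deadenylation genes above the filter (CCR4-NOT, PAN2-PAN3 and their partners) none was called in either genotype, with 4 at an unadjusted p under 0.05 in limma in MED1-/- cells and 3 in WT cells, against 29.2% of all loci in MED1-/- cells and 29.3% in WT cells. Their median changes were -0.26 in MED1-/- cells and -0.27 in WT cells, close to the medians of all loci. The smallest p in MED1-/- cells belonged to Tob1, which links deadenylase to its targets, and to Cnot8, a catalytic subunit. Tob1 had 4.26 and 3.91 RPKM in MED1-/- LPS A and B, against 6.93 and 9.41 untreated, a log2 difference of -0.84 (SE 0.24, adjusted p = 0.0758), and -0.44 in WT cells. Cnot8 had 26.1 and 23.6 RPKM in MED1-/- LPS, against 36.6 and 39.7 untreated, a log2 difference of -0.60 (SE 0.18, adjusted p = 0.0893), and -0.43 in WT cells. Of 34 genes of decapping, exonuclease and exosome decay, none was called in either genotype. An unadjusted p under 0.05 in limma was found for 1 in MED1-/- cells and 2 in WT cells. The shares of all loci were 29.2% in MED1-/- cells and 29.3% in WT cells. The medians of the 34 genes were -0.19 in MED1-/- cells and -0.21 in WT cells. Dcps, the scavenger decapping enzyme, had 12.3 and 9.96 RPKM in MED1-/- LPS, against 16.4 and 17.7 untreated, and 12.4 and 9.01 in WT LPS, against 18.5 and 16.9 untreated. Its log2 difference was -0.58 in MED1-/- cells and -0.69 in WT cells (adjusted p = 0.135 in MED1-/- and 0.0941 in WT cells), and it passed in WT cells only without WT LPS A (0.0377). Lsm7, a subunit of the LSM ring that aids decapping, differed by -0.20 in MED1-/- cells and -0.84 in WT cells (adjusted p = 0.134 in WT cells).

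Genes that act on the members' proteins were read from a list of the p38 pathway and other regulators. In each genotype 2 of the 16 above the filter were called higher and none lower, with medians of 0.21 in MED1-/- cells and 0.20 in WT cells, against 3.31% of all loci called higher in MED1-/- cells and 3.17% in WT cells. With the replicate block 2 were called lower in MED1-/- cells and 1 in WT cells: Ahnak differed by -1.38 in MED1-/- cells (adjusted p = 0.0247, against 0.156 without the block) and -1.73 in WT cells (0.0110, against 0.0988), and Akt1 by -0.90 in MED1-/- cells (0.0391, against 0.0995). Malt1, a protease known to cut Regnase-1 in T cells, had 248 and 287 RPKM in MED1-/- LPS A and B, against 35.3 and 41.3 untreated, and 158 and 289 in WT LPS, against 34.7 and 37.7 untreated. Malt1 rose by 2.77 on the log2 scale in MED1-/- cells (SE 0.29, adjusted p = 0.00870) and by 2.53 in WT cells (SE 0.29, adjusted p = 0.0107). The call was lost in MED1-/- cells without MED1-/- LPS B (0.0876) and in WT cells without untreated WT A (0.0765).

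The kinases below p38 showed smaller rises. Mapkapk2 (MK2), which phosphorylates tristetraprolin and thereby limits its activity, had 418 and 423 RPKM in MED1-/- LPS A and B, against 171 and 178 untreated, and 323 and 297 in WT LPS, against 179 and 235 untreated. The LPS libraries were higher in both genotypes, and the MED1-/- ones were the 2 highest. Mapkapk2 rose by 1.27 on the log2 scale in MED1-/- cells (SE 0.21, adjusted p = 0.0220), and its difference in WT cells was 0.59 (SE 0.21, adjusted p = 0.121). The difference between these responses was 0.67 and did not pass (adjusted p = 0.9999). The MED1-/- call was lost without MED1-/- LPS A (0.0966), MED1-/- LPS B (0.176), untreated MED1-/- A (0.0517) or untreated MED1-/- B (0.0705). Its relative Mapkapk3 (MK3) rose by 0.86 in WT cells (SE 0.20, adjusted p = 0.0491), and its difference in MED1-/- cells was 0.51 (adjusted p = 0.141). That WT call was lost in 9 of 13 alternatives, among them every fit without a MED1-/- library (0.0531 to 0.0822) and those without WT LPS B (0.178), untreated WT A (0.253) or untreated WT B (0.191).

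Most of the mRNAs that these proteins are known to restrain rose with LPS. Of 29 listed targets, 19 were called higher in MED1-/- cells and 17 in WT cells, none lower, against 3.31% of all loci called higher in MED1-/- cells and 3.17% in WT cells. Their median changes were 4.71 in MED1-/- cells and 3.43 in WT cells. With the replicate block 23 were called higher in MED1-/- cells and 21 in WT cells, and Fos was called lower in MED1-/- cells (-2.06, adjusted p = 0.0172, against 0.171 without the block). None of the 29 was called between the genotypes or in the interaction in limma. Between the genotypes, 4 of 29 had an unadjusted p under 0.05 with LPS, against 4.42% of all loci, and 2 of 29 untreated, against 0.834%. With LPS 23 of 29 were higher in MED1-/- cells (median 0.66), against 58.9% of all loci. Untreated 10 of 29 were higher (median -0.14), against 64.1%. The interaction was above 0 for 24 of 29 (median 1.07), against 46.4% of all loci. These counts were not tested. Il1b, Il6, Csf3, Cxcl3 and Ptgs2 had the largest rises in MED1-/- cells among the called targets. Ptgs2, whose motif is printed above, had 1101 and 2951 RPKM in MED1-/- LPS A and B, against 9.50 and 5.77 untreated, and 386 and 1690.0 in WT LPS, against 18.3 and 9.65 untreated. Ptgs2 rose by 7.74 on the log2 scale in MED1-/- cells (SE 0.74, adjusted p = 0.00590) and by 5.82 in WT cells (SE 0.74, adjusted p = 0.0134). Like Zc3h12a, it was higher in the B than in the A library of each LPS group. Its call in WT cells was lost without WT LPS B (0.0632), untreated WT A (0.0681) or untreated WT B (0.0582).

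The rises of the other 4 ran between 8.34 and 8.88 in MED1-/- cells and between 6.31 and 7.76 in WT cells. The call of Il1b was lost in WT cells without WT LPS B (0.0519) or untreated WT A (0.0673). The call of Cxcl3 was lost in MED1-/- cells without MED1-/- LPS B (0.0849) or untreated MED1-/- B (0.0549), and in WT cells without WT LPS B (0.0943) or untreated WT A (0.0834). The calls of Il6 and Csf3 in MED1-/- cells were lost without any 1 of the 4 MED1-/- libraries (adjusted p between 0.0550 and 0.139), and in WT cells without WT LPS B, untreated WT A or untreated WT B (0.0821 to 0.162). All 4 of these calls were also lost with no filter (0.0524 to 0.0664). Csf3 was listed at 0 in untreated WT A.

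**Figure D5:**
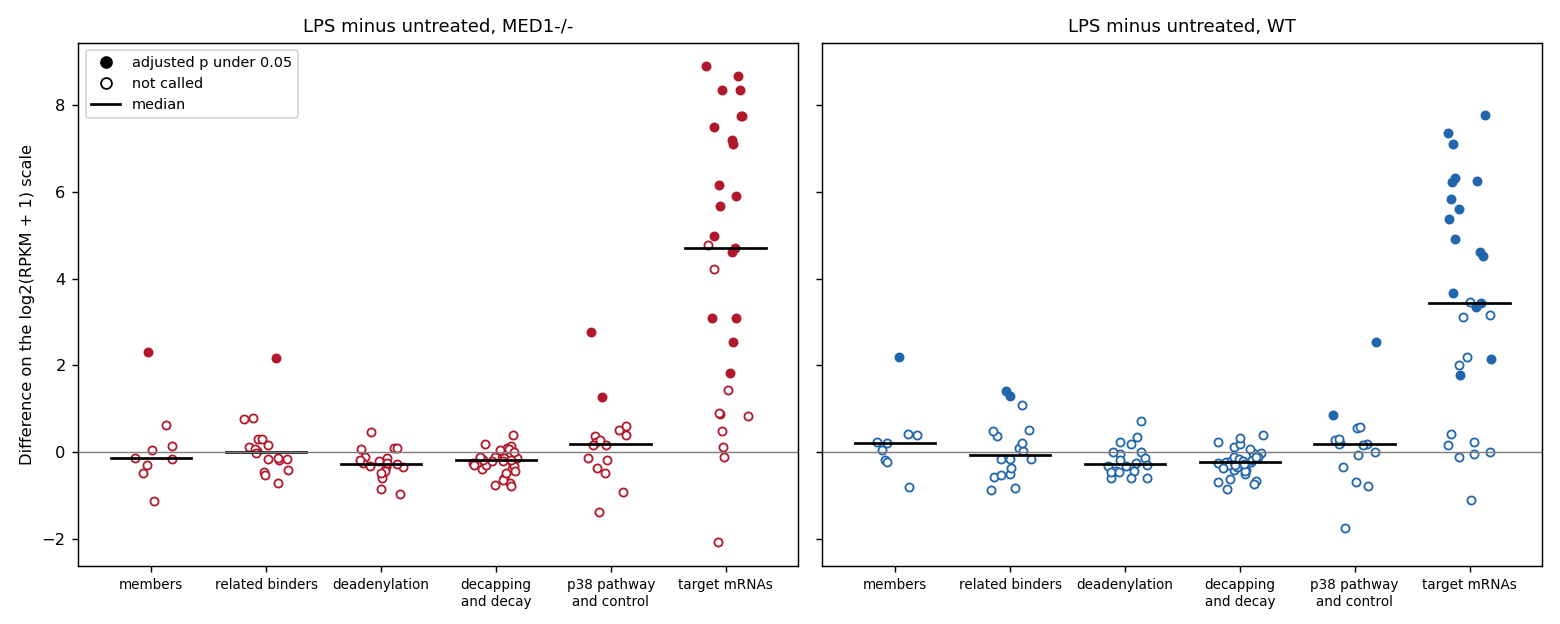
Difference of LPS minus untreated libraries on the log2(RPKM + 1) scale for every gene above the filter in 6 lists, in MED1-/- cells (left) and WT cells (right); filled points had an adjusted p under 0.05 in limma, bars are medians and the sideways spread carries no information. The target mRNAs have medians of 4.71 (MED1-/-) and 3.43 (WT), while those of the other 5 lists lie between -0.27 and 0.21.

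The AU-rich motif was also set against the LPS response of all genes with an annotated 3′ UTR, as a description with no test. In MED1-/- cells 44 of 746 genes with the 9-base motif were called higher (5.90%), against 4.92% of those with the core only and 2.73% of those with neither. In WT cells 5.63% of those with the 9-base motif were called higher, against 4.43% with the core only and 2.68% with neither. Among genes with neither and a 3′ UTR of at least 1500 bases the shares were 2.78% in MED1-/- cells and 3.47% in WT cells. Called lower were 22 of the 746 in each genotype (2.95%), against 3.79% of those with neither in MED1-/- cells and 3.89% in WT cells. The 155 genes with 2 or more copies of the 9-base motif include those whose copies overlap. Of these genes, 12 were called higher in each genotype (7.74%) and none lower. Leaving out the target list, 5.16% of genes with the motif were called higher in MED1-/- cells and 4.89% in WT cells. Within the target list 6 of 10 genes with the motif were called higher in each genotype, and of the 19 without it 13 in MED1-/- cells and 11 in WT cells.

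Genes whose profile was most like that of a member were sought for each member that spanned at least 1 log2 unit, by Pearson's r of log2(RPKM + 1) over the 8 libraries, among 5480 loci. Nearest to Zc3h12a were Tpbg (r = 0.996), Il1f6 (0.996), Has1 (0.995), Tnfaip3 (0.995) and Osgin2 (0.994). Nearest to Zfp36l2 were Def8 (0.996), Fbxo10 (0.994), Pmm1 (0.993), Fam73b (0.993) and Slc25a45 (0.991). For Zfp36 the closest were less alike, led by Csrnp1 (0.948), Casp4 (0.947) and Gem (0.945), and for Zfp36l1 Fam46a (0.949), Tnfsf10 (0.945) and Sp4 (0.942). Krtcap3 (0.990) and Pde3b (0.983) were nearest to Tia1. The profiles share their libraries, depth and group differences, and the values are given as a description.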

How the data were processed

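The authors deposited 1 table of RPKM values, and per the submitters' processing notes it was made with bcl2fastq, TopHat2 2.0.14, Cufflinks 2.2.1 and the mm9 genome. The sources used here name no strandedness, gene annotation or pairing of reads. The table has 24192 lines, of which 457 repeat a locus under another symbol with equal values, and each of the 23735 loci was used once. Members were matched by symbol and positions were taken from GENCODE vM1 on the same build.

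Depth was estimated from the spacing of low RPKM values and 667 genes with 1 annotated transcript, and 1 read on 1 kb stood for 0.07 to 0.144 RPKM. One mean per group was fitted with limma 3.58.1 in R 4.3.3 on log2(RPKM + 1), with variances that follow a trend with expression, over all 8 libraries and the 11272 loci that reached 1 RPKM in 2 or more libraries. Tests were two-sided, and p-values were adjusted over all these loci (Benjamini-Hochberg, called under 0.05). The fit was first run on simulated data with independent noise between libraries, and the outcome is not given here. That run does not cover libraries that vary together. Figures were made in Python 3.11.15 with matplotlib 3.10.9.

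The alternatives were a pseudocount of 0.1, no filter, a filter at 5 RPKM, median-ratio scaling, a block for the letter, and leaving out each library in turn. After subtraction of the group mean, libraries of the same letter correlated in all 6 pairs of groups (r between 0.20 and 0.41 across loci), so the letters, taken from the sample titles, were treated as pairing libraries in the replicate block.

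The members and gene lists were chosen with earlier results of these data known. Members, Khsrp and Med1 were named whatever their result. From each list up to 5 genes with the largest change among those called with LPS were named, or the 2 with the smallest p where none was called. Arid5a, Ahnak, Akt1 and Fos were also named, since the replicate block called them.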

Additional observations from a re-analysis of the deposited data

Results flagged for a closer look

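Hnrnpd was the one member whose MED1-/- libraries lay above the WT libraries of the same letter with LPS and below them untreated. On the log2(RPKM + 1) scale its differences of MED1-/- from WT were 0.00 (letter A, a small positive value) and 0.02 (letter B) with LPS, and -0.03 (A) and -0.14 (B) untreated. The interaction was 0.10 with an adjusted p of 0.9999 in limma, so the difference between the treatments did not pass, and all 4 values are small.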

How the results depend on the processing

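With no filter, 262 loci were called with LPS in MED1-/- cells and 270 in WT cells, and the members called numbered 0 in MED1-/- and 0 in WT cells. With the replicate block, 1611 loci were called in MED1-/- cells and 1818 in WT cells, and the block changed no call of a member. It did change calls in the lists, which are given beside them. Leaving out each library in turn gave 20 to 1554 loci in MED1-/- cells and 7 to 2244 in WT cells, with 0 to 2 members called in each. Between genotypes with LPS the 1 called locus became 2 with no filter and 0 to 6 with a library left out. The 4 loci of the interaction became 0 with a pseudocount of 0.1, 0 with a filter at 5 RPKM and 1 to 7 with a library left out. No member was called between genotypes or in the interaction under any of these alternatives.

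Of 585 alternative values for 45 member results, 38 changed sign, 32 of them with a library left out and 6 with median-ratio scaling, and none involved a call. Median-ratio scaling gave 0.13 for Rc3h1, 0.11 for Rc3h2 and 0.07 for Lsm7 with LPS in MED1-/- cells, and 0.08 for Rc3h1 with LPS in WT cells. Between genotypes it gave -0.07 for Zc3h12a and -0.06 for Hnrnpd with LPS, and -0.09 for Zfp36l2 and -0.04 for Khsrp untreated.

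The log2 values with a library left out that changed sign had these ranges. With LPS in MED1-/- cells they were -1.06 to 0.51 for Zfp36l1, -0.28 to 0.02 for Rc3h1, -0.47 to 0.17 for Rc3h2 and -0.55 to 0.14 for Lsm7, and in WT cells -0.02 to 0.12 for Hnrnpd. Between genotypes with LPS they were -0.50 to 0.33 for Zfp36l1, -0.79 to 0.17 for Zfp36l2, -0.56 to 0.56 for Zc3h12a, -0.04 to 0.22 for Elavl1, -0.03 to 0.06 for Hnrnpd, -0.07 to 0.36 for Tia1, -0.16 to 0.34 for Khsrp and -0.18 to 0.07 for Med1. Untreated they were -0.09 to 0.40 for Zfp36, -0.15 to 1.42 for Zfp36l1, -0.19 to 0.19 for Zfp36l2, -0.02 to 0.28 for Rc3h1, -0.01 to 0.77 for Tia1, 0.00 to 0.09 for Khsrp and -0.38 to 0.01 for Med1. For the interaction they were -0.09 to 0.52 for Zfp36, -1.50 to 0.07 for Zfp36l1, -0.79 to 0.17 for Zfp36l2, -0.45 to 0.67 for Zc3h12a, -0.12 to 0.19 for Rc3h1, -0.63 to 0.16 for Tia1 and -0.20 to 0.29 for Khsrp. Where a fit left 1 library in a group, that library was assumed to vary like the other groups. The cause of these shifts was not tested.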
